A study of Homo sapiens with 102 samples.

Results

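The mRNAs of 10 genes of the actin and tubulin cytoskeleton were followed through a droplet-based drug combination screen in K562 cells, a human myelogenous leukemia line that carries the BCR-ABL fusion gene. The members were taken by gene symbol. They are the actins ACTB and ACTG1, the actin-binding proteins PFN1, TMSB10 and CFL1, the alpha tubulins TUBA1A, TUBA1B and TUBA1C, and the beta tubulins TUBB and TUBB4B. All 10 were found among the 24965 genes of the deposited table. Single cells had been enclosed in picolitre droplets with a pair of compounds and the matching barcodes, incubated for 12 h and lysed, and poly-A mRNA was reverse transcribed from barcoded poly-dT primers. The compounds were imatinib, which blocks the kinase made from BCR-ABL, trametinib, an inhibitor of the MEK kinases, YM115 as the labels spell it (YM155 in the study, a suppressor of survivin expression) and the solvent DMSO. Each could stand first or second in the pair, which gave 16 ordered pairs, for example Imatinib_YM115 and YM115_Imatinib. The pairs were run in 3 replicate runs in each of 2 screens that differed in the barcoding scheme, named dT and Bio in the labels, and each run of each screen had a separate DMSO control outside the droplet pairs, so that there were 96 droplet libraries and 6 separate controls. Every library carried the same fusion gene and came from 1 cell line, and the doses were not analysed here. The study describes the runs of the screen as biological replicates, while the labels do not tie the runs to separate cultures, so p-values measure the spread between these libraries.

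Actin monomers assemble into filaments that carry cell shape and movement, and beta actin and gamma actin, the products of ACTB and ACTG1, are the cytoplasmic forms. Profilin (PFN1) and thymosin beta 10 (TMSB10) bind actin monomers, and cofilin (CFL1) severs filaments. Alpha and beta tubulin pair into the dimers from which microtubules and the mitotic spindle are built. ACTB and several tubulins are widely used as reference genes, on the premise that their mRNA varies little between conditions.

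In GRCh38 with the GENCODE 29 annotation, ACTB (ENSG00000075624) lies at chr7:5527147-5563784 on the minus strand and ACTG1 (ENSG00000184009) at chr17:81509971-81523847 on the minus strand. PFN1 (ENSG00000108518) lies at chr17:4945652-4949061, TMSB10 (ENSG00000034510) at chr2:84905625-84906675 and CFL1 (ENSG00000172757) at chr11:65823022-65862026. The alpha tubulin genes share a cluster on chromosome 12, with TUBA1B (ENSG00000123416) at chr12:49127782-49131397, TUBA1A (ENSG00000167552) at chr12:49184796-49189324 and TUBA1C (ENSG00000167553) at chr12:49188736-49274603, where TUBA1A and TUBA1C overlap on opposite strands. TUBB (ENSG00000196230) lies at chr6:30720201-30725426 and TUBB4B (ENSG00000188229) at chr9:137241213-137243707. The results below turn on telling ACTG1 from ACTB and TUBB4B from TUBB. The study used a protocol for 3′ end libraries, so the last 500 bases, compared below, bear more on this than the coding starts. As a description, the first 30 coding bases of these genes are shown from the GENCODE 29 transcripts, together with those of the alpha tubulins. Capitals mark bases that differ within the pair or trio.

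ACTB: atggaTgaTgaTatcgccgcgctCgtcGtC
ACTG1: atggaAgaAgaGatcgccgcgctGgtcAtT
TUBB: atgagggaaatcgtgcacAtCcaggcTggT
TUBB4B: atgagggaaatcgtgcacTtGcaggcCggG
TUBA1A: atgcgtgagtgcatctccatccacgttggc
TUBA1B: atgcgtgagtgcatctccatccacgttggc
TUBA1C: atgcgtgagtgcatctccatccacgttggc

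These starts differed at 6 positions between the actins, at 4 between the beta tubulins and at none among the alpha tubulins. Over the whole coding sequence, ACTB and ACTG1 were 91.2% identical (99 of 1128 bases differed), TUBB and TUBB4B 84.3%, and the alpha tubulins 96.1% to 97.2%. Windows of 59 bases, the length of the sequenced cDNA read, were compared with all other annotated transcripts. In ACTG1 1.91% of windows and in ACTB 6.23% also occurred in another gene, and in neither did any window of the last 500 bases do so. For TUBB the share was 13.2%, with none in the last 500 bases, and for TUBB4B 7.92%, with 21.3% in the last 500 bases, most often shared with TUBB2A and TUBB2B. For PFN1 it was 7.46%, with 20.8% in the last 500 bases, shared with its pseudogene PFN1P1. In TUBA1B 58.0% of windows occurred elsewhere, in TUBA1A 35.6% and in TUBA1C 22.1%. In the last 500 bases the shares were 46.8%, 23.5% and 0%, and how reads from shared windows were split among these genes is not known. PFN1 lies antisense to ENO3, and the strand setting of the deposited counts is not given in the sources used here.

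Libraries entered the comparisons when 1000 genes or more were detected and mitochondrially encoded genes took no more than 15% of the counts. All 48 droplet libraries of the dT screen passed, with 127042 to 759756 counts, and 44 of 48 passed in the Bio screen. The 4 left out were the Bio DMSO_Trametinib library of run 1 and all 3 Bio Imatinib_Imatinib libraries, so the Bio screen holds no Imatinib_Imatinib condition. A count of 3 was worth 3.95 to 23.6 CPM (the count scaled to a common library total) in the dT libraries and up to 36.7 CPM in the Bio libraries, which is the limit that a count of 0 allows for counting error alone. The separate controls held 5501 to 10361 detected genes, against 1837 to 5110 in the dT droplet libraries, and 2 of 3 in each screen had a mitochondrial share above 15%, so they were kept apart and exempted from the filter. All 10 markers of K562 cells, which include fetal and embryonic globins and GATA1, were counted in the droplet libraries, with a summed level of 13122 to 85517 CPM in the dT screen. The summed levels of T cell, B cell, monocyte, epithelial and fibroblast markers had a median of 0 CPM in the droplet libraries of both screens.

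The 10 members together took a median of 0.314% of the counts in a dT library (range 0.139 to 0.713%) and 0.315% in a Bio library (0.0421 to 0.729%). No droplet library counted all 10: between 5 and 9 were counted in a dT library and between 3 and 8 in a Bio library. These values are shares of reads, not corrected for gene length. In bulk counts of this kind, fewer cells and less RNA per cell cannot be told apart.

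Among the actins, ACTB was counted in all 48 dT libraries, at 17.9, 613 and 1859 CPM as the lowest, median and highest value. ACTG1 was counted in 46 of 48, from 0 over a median of 222 to 4329 CPM. The range of ACTG1 was the wider of the pair at both ends. ACTB was counted in 36 of 44 Bio libraries, with a median of 191.5 and a maximum of 3161 CPM. ACTG1 was counted there in 41 of 44, with a median of 190 and a maximum of 5455 CPM. The reference gene ACTB was thus uncounted in 8 Bio libraries. In the 16 dT conditions, mean ACTB ran from 191 ± 152 CPM (SD, n = 3) in YM115_DMSO to 1231 ± 584 in DMSO_Trametinib. Of the 15 pairs of neighbours in that order, none had run values that did not overlap.

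PFN1 was the most regularly counted actin binder, at 70.7, 1166 and 2975 CPM in the dT screen, with 48 of 48 libraries counted. Its condition means ran from 631 ± 682 CPM (SD, n = 3) in DMSO_DMSO to 2091 ± 325 in Imatinib_Imatinib. The DMSO_DMSO libraries held 1403, 379 and 111 CPM of PFN1 and the Imatinib_Imatinib libraries 2114, 2404 and 1755. None of the 15 neighbouring pairs in that order was separate. TMSB10 was counted in all 48 dT libraries too, at 42.1, 257 and 1448 CPM, from 154 ± 34.3 CPM in Imatinib_Imatinib to 975 ± 431 in DMSO_Imatinib (SD, n = 3). Imatinib listed once, after DMSO, and imatinib in both places thus stood at opposite ends of the TMSB10 order. CFL1 was sparse, with counts in 18 of 48 dT libraries and a maximum of 127.5 CPM, and in 13 of 44 Bio libraries with a maximum of 1214 CPM.

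TUBB was the most evenly counted tubulin, at 5.44, 299.8 and 524.5 CPM in the 48 dT libraries, all of which held it. Its condition means ran from 139 ± 68.0 CPM (SD, n = 3) in Trametinib_Trametinib to 418 ± 94.6 in YM115_YM115. The partner TUBB4B had 12 counts over the 48 dT libraries, in 6 of them, so it was not tested for drug effects there, and it gave 0.256% of the summed TUBB and TUBB4B counts. Among the alpha tubulins, TUBA1B was counted in 41 of 48 dT libraries (median 69.8, maximum 981 CPM), TUBA1C in 28 (median 3.77, maximum 445 CPM) and TUBA1A in 11 (maximum 214 CPM). Of the summed alpha tubulin counts of the dT screen, TUBA1B gave 68.0%, TUBA1C 25.2% and TUBA1A 6.87%. Beta tubulin gave 60.8% of the alpha and beta tubulin counts, and only 1 of 48 dT libraries counted all 5 tubulins.

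**Figure D1:**
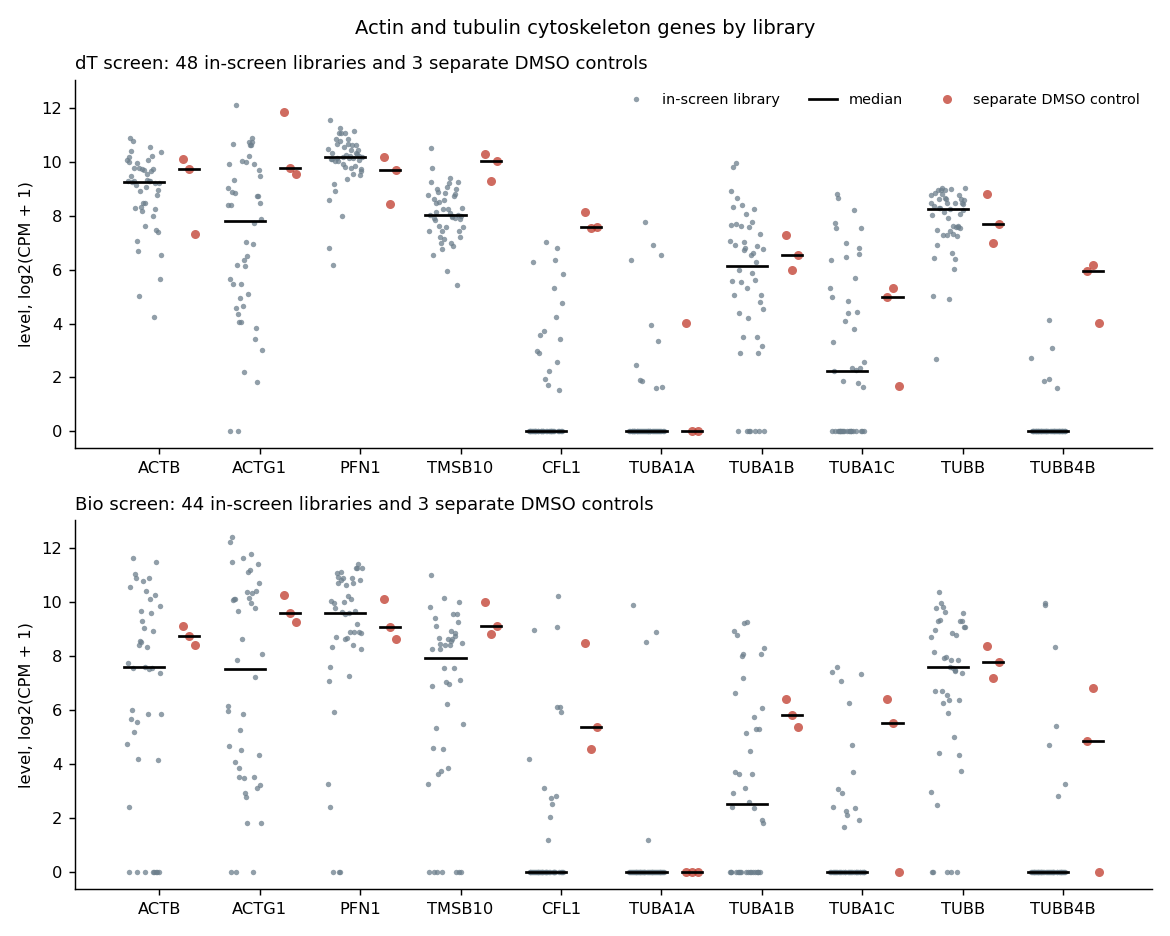
Level of each of the 10 genes in each library on the log2(CPM + 1) scale, for the dT and the Bio screen, with grey points for droplet libraries, red points for the separate DMSO controls and bars at the median of each kind. ACTB, PFN1, TMSB10 and TUBB were counted in all 48 dT libraries, while TUBB4B was counted in 6 of them and CFL1 in 18.

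To ask what each drug did, all droplet libraries of a screen were fitted together with 1 term for each drug, present in either place of the pair, and a term for the run. In the dT screen ACTG1 fell with imatinib. Without imatinib, ACTG1 stood at 7.09, 516 and 4329 CPM (lowest, median and highest of 27 libraries), and with imatinib at 0, 29.6 and 1703 CPM (21 libraries). The ranges overlapped, but the median with imatinib was lower in each run, at 15.7 against 474 CPM in run 1, 42.9 against 516 in run 2 and 332 against 699 in run 3. In run 2 no library with imatinib reached the lowest library without it (81.9 against 130 CPM), and in run 1 the sole overlap was between Trametinib_Imatinib at 90.7 and Trametinib_DMSO at 69.3 CPM. The fitted log2 fold change was −2.94 ± 0.70 (SE), with an adjusted p of 0.0142 (edgeR quasi-likelihood test, Benjamini-Hochberg over 3930 genes). ACTG1 ranked 30 among these genes by p. It was the 1 called member of 8 tested. Over all genes 2.88% were called, and 2.01% were called lower. Without the run term the change was −2.07 and its adjusted p 0.230, and the call was also lost without run 1 (−2.28, adjusted p 0.212) and without run 2 (−2.65, adjusted p 0.238). Median depth was 349824 counts with and 351681 without imatinib.

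The single conditions showed the same order. DMSO_DMSO held 338, 516 and 963 CPM of ACTG1 in runs 1 to 3, and Imatinib_Imatinib 0, 15.8 and 29.6 CPM. These values did not overlap, but the share of all genes that separate between 2 such conditions was not computed. Imatinib paired with DMSO gave 0, 49.8 and 332 CPM when listed second and 23.0, 70.8 and 19.3 CPM when listed first, all below the lowest DMSO_DMSO library. When only the single-drug and DMSO_DMSO libraries were fitted, the change was −3.53, but its adjusted p was 0.700. The 2 libraries at 0, DMSO_Imatinib and Imatinib_Imatinib of run 1, had limits of 23.6 and 8.13 CPM. The main exceptions lay in run 3, where Trametinib_Imatinib held 1703, Imatinib_Trametinib 1028 and YM115_Imatinib 421 CPM despite imatinib, and where YM115_YM115 at 7.09, YM115_DMSO at 9.89 and DMSO_Trametinib at 43.2 CPM were low without it. Without run 3 the change was −4.07 with an adjusted p of 0.00148.

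**Figure D2:**
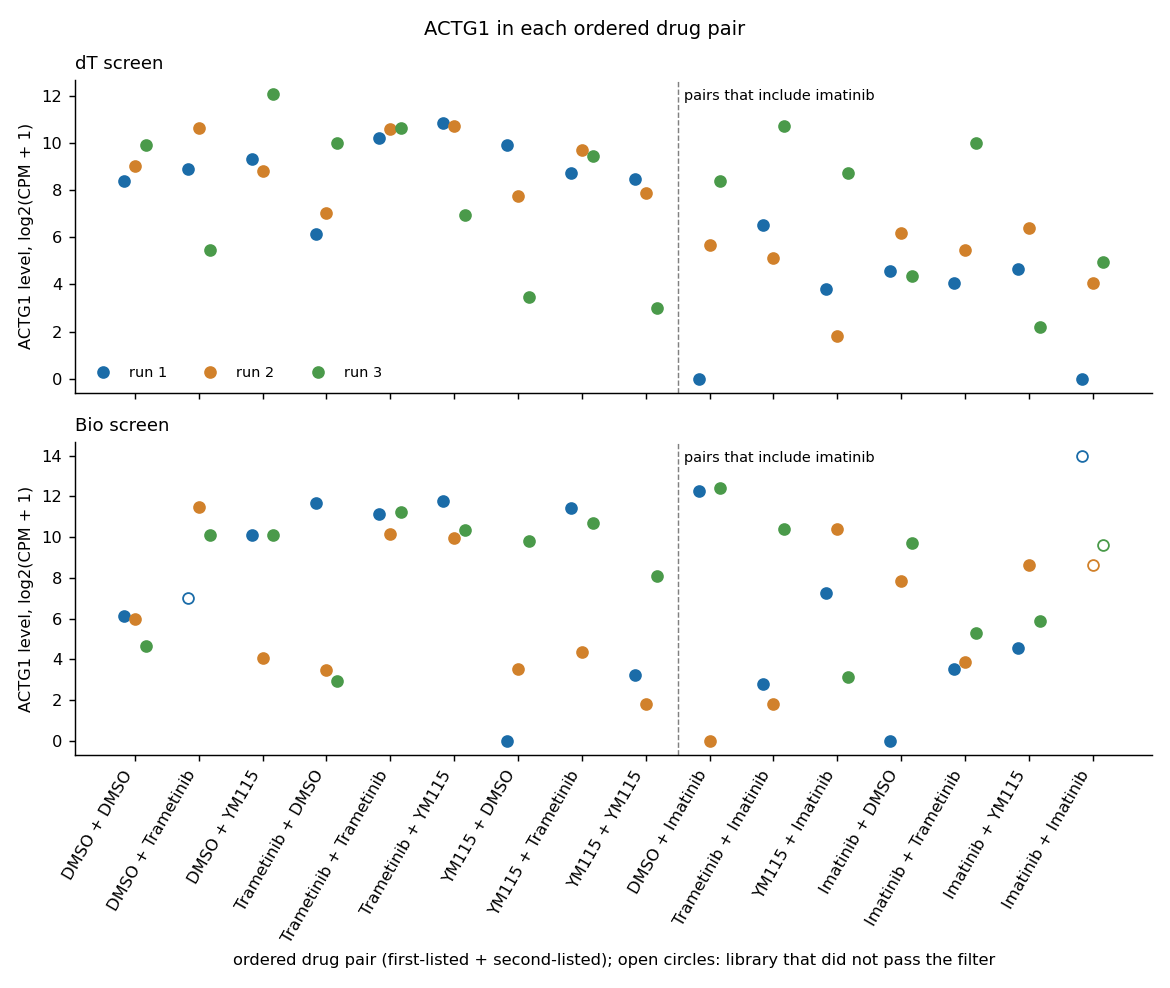
ACTG1 level on the log2(CPM + 1) scale in each of the 16 ordered drug pairs of both screens, with 1 point per run; open circles are libraries that did not pass the library filter. In the dT screen the Imatinib_Imatinib libraries lie between 0 and 29.6 CPM and the Trametinib_Trametinib libraries between 1183 and 1582 CPM.

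The other actin covered nearly the same range with and without imatinib. ACTB stood at 31.5, 594 and 1859 CPM with imatinib (21 libraries) and at 17.9, 622 and 1759 CPM without it (27 libraries), for a fitted log2 difference of −0.12 ± 0.39 (SE, edgeR adjusted p 0.955). The share of gamma actin in the summed actin counts followed ACTG1: it was 27.1% with and 55.7% without imatinib over the summed counts. Among libraries with at least 20 actin counts its median was 4.44% with imatinib (range 0 to 61.6%, n = 20) and 54.2% without (0.541 to 93.4%, n = 27). The ranges overlap, and these shares are given without a test. Summed over the Bio screen the shares were 43.6% with and 68.7% without imatinib, with medians of 10.0% (n = 16) and 70.6% (n = 20), and both groups reached 100%.

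**Figure D3:**
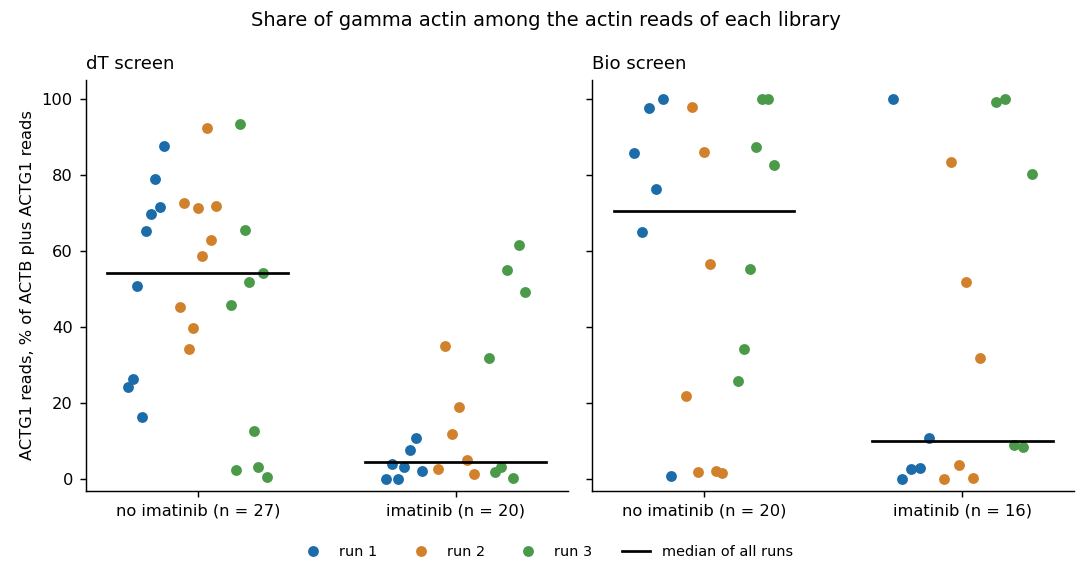
Share of ACTG1 in the summed ACTB and ACTG1 counts, in percent, for each library with at least 20 such counts, with and without imatinib in the dT and the Bio screen; bars are medians. In the dT screen the median was 4.44% with and 54.2% without imatinib, and the 2 groups overlap.

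Among the other 7 members tested against imatinib in the dT screen, none passed the threshold in edgeR, and DESeq2 called PFN1 (0.82 on the log2 scale, adjusted p 0.0436) beside ACTG1. PFN1 stood at 254, 1370 and 2975 CPM with imatinib and at 70.7, 1049 and 2235 CPM without. Its fitted log2 difference was 0.71 ± 0.28 (SE) with an adjusted p of 0.206 in edgeR, and the mean level was higher with imatinib in 3 of 3 runs. TUBA1C was counted in 9 of 21 libraries with imatinib and in 19 of 27 without, for a difference of −2.25 ± 1.11 (SE) and an edgeR adjusted p of 0.351. ACTG1, PFN1 and TUBA1C were the 3 members of 8 with an unadjusted p under 0.05, a level reached by 13.9% of all genes. Of the 8 members 3 had a higher and 5 a lower fitted value, with a median log2 difference of −0.27 against 0.07 over all genes.

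For trametinib in the dT screen, 0 of 8 members were called in edgeR and 0 of 7 in DESeq2, where 1.37% of 3930 genes were called in edgeR. A single member, ACTG1, had an unadjusted p under 0.05 (12.6% of all genes did). It stood at 15.7, 699 and 1858 CPM with trametinib (21 libraries) and at 0, 70.8 and 4329 CPM without (27 libraries). The fitted log2 difference was 1.60 ± 0.62 (SE) with an adjusted p of 0.215 in edgeR, and −0.19 when only single-drug conditions were fitted. All 3 Trametinib_Trametinib libraries were high in ACTG1, at 1183, 1553 and 1582 CPM, above the DMSO_DMSO libraries of the screen (338 to 963 CPM) without overlap. How many of all genes separate in this way was not computed. DMSO_Trametinib held 474, 1610 and 43.2 CPM and Trametinib_DMSO 69.3, 130 and 1013 CPM, on both sides of DMSO_DMSO. The fitted values of the 8 members ran from −0.87 to 1.60 on the log2 scale, with a median of −0.09 against 0.23 over all genes.

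For YM115 in the dT screen, 0 of 8 members were called in edgeR and 0 of 7 in DESeq2, where 2.62% of all genes were called in edgeR. No member had an unadjusted p under 0.05 in edgeR (14.2% of all genes did), and 1 did in DESeq2. Their fitted log2 differences ran from −0.81 to 2.27, with a median of 0.25 against 0.21 over all genes. Of the summed alpha tubulin counts, TUBA1C gave 43.9% with YM115 and 9.45% without, and TUBA1B 46.9% with and 85.6% without. Per library the TUBA1C share had a median of 38.5% with YM115 (n = 14 libraries with at least 20 counts) and 2.78% without (n = 17). The share spanned 0 to 100% with YM115 and 0 to 86.5% without, so the groups overlapped, and the difference in share was not tested. The fitted log2 difference of TUBA1C itself was 2.27 ± 1.38 (SE, edgeR adjusted p 0.485). In the Bio screen TUBA1C held 109 counts with YM115, beside 561 of TUBA1B and 77 of TUBA1A. Without YM115 it held 88 counts, beside 277 of TUBA1B and 394 of TUBA1A.

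**Figure D4:**
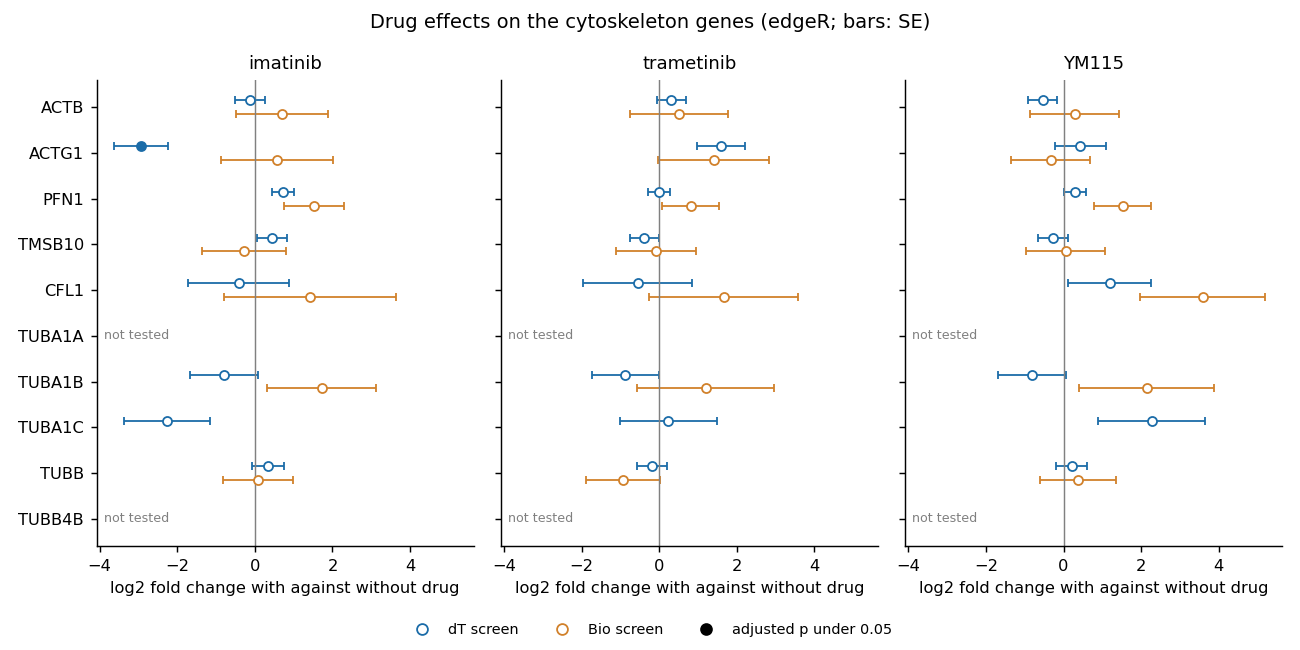
Fitted log2 fold change of each gene for imatinib, trametinib and YM115 in the dT and the Bio screen, with bars of 1 standard error; filled points have an adjusted p under 0.05 in edgeR. A single point, ACTG1 with imatinib in the dT screen at −2.94, is filled; TUBA1A and TUBB4B, and TUBA1C in the Bio screen, were too sparse to be tested.

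In the Bio screen 7 members could be tested, and none was called for any drug in edgeR, nor any of the 3 for which DESeq2 gave a value. Over all 1754 genes tested there, 2.39% were called for imatinib, 2.22% for trametinib and 2.74% for YM115. At an unadjusted p under 0.05 there were 0 members for imatinib and trametinib and 2 for YM115 in edgeR, where 15.2%, 12.7% and 16% of all genes reached it for the 3 drugs in that order. In DESeq2 there was 1 member for imatinib, 0 for trametinib and 1 for YM115. PFN1 stood at 309, 1015 and 2745 CPM with YM115 (21 libraries) and at 0, 411 and 2232 CPM without (23 libraries), a log2 difference of 1.52 ± 0.73 (SE) with an edgeR adjusted p of 0.281. CFL1 was counted in 8 of the 21 YM115 libraries and in 5 of the other 23, a difference of 3.59 ± 1.61 (SE) with an edgeR adjusted p of 0.243, which became 5.48 with an adjusted p of 0.0143 when depth was a covariate. ACTG1 ranged from 0 to 5455 CPM with imatinib (median 47.4, 18 libraries) and from 0 to 3536 CPM without (median 951, 26 libraries), while its fitted log2 difference had the opposite sign to the medians, at 0.57 ± 1.44 (SE, edgeR adjusted p 0.932). The DMSO_DMSO libraries of the Bio screen held 69.6, 61.1 and 24.5 CPM of ACTG1, below 2 of the 3 DMSO_Imatinib libraries (4833, 0 and 5455 CPM). The solvent droplets of the Bio screen were themselves low in ACTG1.

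The drug terms were compared between the screens in 1 model. No member of 9 differed at an adjusted p under 0.05 in edgeR and none of 3 in DESeq2, where 26.3% of 4705 genes were called in edgeR and none in DESeq2. At an unadjusted p under 0.05 there was 1 member in edgeR (and 39.1% of all genes), ACTG1 (adjusted p 0.0654), and 0 in DESeq2. The edgeR call for ACTG1 depended on the filters, with an adjusted p of 0.0354 without the filter on low counts and 0.0454 without the library filter. The Bio Trametinib_Trametinib libraries held 2219, 1151 and 2364 CPM of ACTG1, and those of the dT screen 1183, 1553 and 1582 CPM, which overlap. In both screens these 3 libraries stood above the DMSO_DMSO libraries of the same screen, which in Bio held at most 69.6 CPM. The Bio DMSO_DMSO libraries held only 2 to 9 counts of ACTG1 each, and the share of all genes that separate in this way was not computed. Trametinib paired with DMSO in Bio ranged from 6.58 to 3234 CPM (5 libraries).

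The screen loaded the same drugs in both places of the pair, so that the effect of the listed position could be tested. In the dT screen 0 of 8 members were called in edgeR, against 13.9% of 4492 genes, and 2 had an unadjusted p under 0.05 (28.8% of all genes did). These were ACTB (adjusted p 0.103) and CFL1 (adjusted p 0.131). DESeq2 called 1 of 6, ACTB, with an adjusted p of 0.0386, and 2 had an unadjusted p under 0.05. ACTB stood at 17.9, 278 and 1304 CPM with YM115 listed first and at 49.7, 716 and 1304 CPM with YM115 listed second (12 libraries each, of which the YM115_YM115 libraries count in both), and the groups overlap.

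In the Bio screen 1 of 8 members was called for the listed position, where 18.5% of 2112 genes were called, and 1 of 10 for the drug-drug interaction, where 14% of 3429 were, so neither share exceeded that over all genes. Both calls were for CFL1, counted in 13 of 44 libraries, with edgeR adjusted p of 0.00500 and 0.0246. Both were lost without the filter on low counts (adjusted p 0.196 and 0.261) and with a depth covariate (0.0732 and 0.109), and CFL1 was too sparse to be tested among genes counted in at least 50% of libraries. Most CFL1 counts lay in a single ordered pair. YM115_Imatinib, the highest of the 15 conditions, held 538, 69.4 and 1214 CPM of CFL1 in the 3 runs (129, 25 and 158 counts). The reverse pair Imatinib_YM115 held 0, 0 and 7.62 CPM. These did not overlap, and the share of all genes that separate in this way was not computed. In the dT screen YM115_Imatinib held 111, 0 and 0 CPM of CFL1 and Imatinib_YM115 12.2, 2.82 and 0 CPM, which overlap. Of 15 Bio conditions 6 had no CFL1 count, and 3 libraries gave 82.7% of all CFL1 counts of the screen. Without run 2 the position p became 0.0734 and without run 3 0.0755, and the interaction call was lost without each run in turn (adjusted p 0.0942 to 0.224). In Bio 35% of all genes had an unadjusted p under 0.05 for position and 35.4% for interaction, where 1 and 2 members did. DESeq2 gave a value for only 2 members in the test of position and 3 in that of interaction. It called none of these, with 0 at an unadjusted p under 0.05. CFL1 had no adjusted p in DESeq2, so its calls could not be compared there.

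TUBB4B was highest in the opposite order of the same compounds, in runs 1 and 2 only. Run 3 held 0 CPM in both orders, so the orders overlap, and in dT both orders held 0 CPM in every run. Imatinib_YM115 held 956, 994 and 0 CPM of TUBB4B in the 3 Bio runs (428, 177 and 0 counts), and YM115_Imatinib held 0 in all 3. Trametinib_YM115 held 0, 320 and 42.1 CPM, and 3 libraries gave 96.6% of the 770 TUBB4B counts of the screen. TUBB4B was not called in the test of interaction (edgeR adjusted p 1.00), and it was too sparse for the tests of position and of each drug. TUBA1A was still more concentrated, with 99.8% of its 471 Bio counts in 3 libraries of different conditions, DMSO_Imatinib run 2 at 951 CPM, YM115_DMSO run 3 at 472 CPM and Trametinib_DMSO run 2 at 367 CPM.

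**Figure D5:**
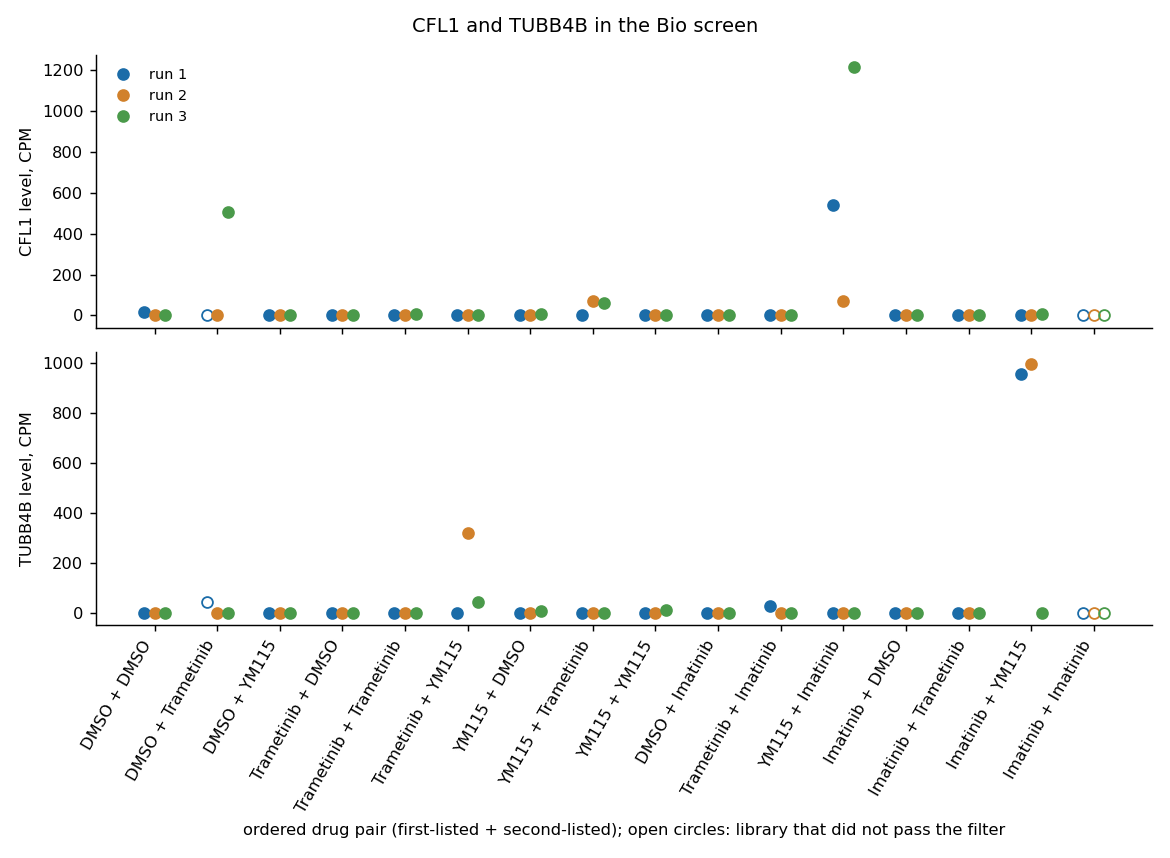
CFL1 and TUBB4B levels in CPM (linear scale) in the 16 ordered drug pairs of the Bio screen, with 1 point per run; open circles are libraries that did not pass the library filter. CFL1 reached 1214 CPM in YM115_Imatinib and at most 7.62 CPM in Imatinib_YM115, while TUBB4B reached 994 CPM in Imatinib_YM115 and 0 in YM115_Imatinib.

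In the remaining interaction tests, 0 of 9 members were called in the dT screen in edgeR, where 9.8% of 6263 genes were, and 0 of 7 in DESeq2. A single member had an unadjusted p under 0.05 in edgeR (32.3% of all genes did), TUBA1A (adjusted p 0.0820), and none did in DESeq2. In the Bio screen ACTG1 had an unadjusted p of 0.0429 and an adjusted p of 0.129 in edgeR. TUBA1A had counts in 11 dT libraries, and 3 of them gave 83.1% of its counts.

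The libraries of each run were summed to compare the screens as a whole. No member of 10 was called in edgeR, where 0.0431% of 6965 genes were, and 1 had an unadjusted p under 0.05 (7.34% of all genes did). This was TUBB4B, at 6.56 ± 2.18 (SE) on the log2 scale in Bio over dT with an adjusted p of 0.377. DESeq2 called TUBB4B alone of the 10 members, at 6.98 with an adjusted p of 0.00110, with 2 members at an unadjusted p under 0.05. Among the separate DMSO controls alone the difference was −0.23, the opposite sign, and these controls held 61.4, 70.1 and 15.3 CPM of TUBB4B in dT and 28.0, 112 and 0 CPM in Bio, which overlap.

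Some members without a count in the solvent droplets were counted in the separate DMSO controls. These controls held 5501 to 10361 detected genes, against at most 5110 in dT and 3849 in Bio droplet libraries. The share of all genes that separated between the 2 kinds of solvent sample was not computed. CFL1 was at 0 in all 3 DMSO_DMSO droplet libraries of the dT screen and at 187 to 276 CPM in the 3 separate controls, which did not overlap. The edgeR adjusted p was 0.295 in the contrast over all libraries of the screen. TUBA1B was at 0 in the 3 Bio DMSO_DMSO libraries and at 83.9, 56.0 and 40.2 CPM in the Bio controls, where 3 counts were worth 33.6 to 83.9 CPM, and the contrast had an edgeR adjusted p of 0.189. These were the single members with an unadjusted p under 0.05 of 9 tested in dT and of 10 in Bio, a level that 16.2% and 24.3% of all genes reached. None was called in edgeR, where 0.116% of 6917 genes in dT and 0.0432% of 4631 in Bio were, and none in DESeq2, where 0 had an unadjusted p under 0.05. ACTG1 held 3690, 857 and 745 CPM in the dT controls and 1231, 783 and 623 CPM in the Bio controls. The Bio controls were thus all above the solvent droplets of their screen, at 69.6 CPM or less. TMSB10 stood at 616 to 1239 CPM in the dT controls, against 172 to 438 CPM in DMSO_DMSO, which did not overlap, while ACTB, PFN1 and TUBB overlapped between the 2 kinds of solvent sample in dT. In Bio the controls held 342 to 560 CPM of ACTB and 402 to 1119 CPM of PFN1, above the solvent droplets (at most 217 and 196 CPM), and TUBB overlapped. None of these differences passed the test. The median log2 difference of the members was 0.20 in dT against 3.39 over all genes, and 3.09 in Bio against 5.63. In both screens the members thus lay below the all-gene median in this fit, but in Bio the order depended on the filter. Among genes counted in at least 50% of libraries, the medians were 0.12 against 0.58 in dT and 3.17 against 0.22 in Bio. Without the filter on low counts they were 0.61 against 1.82 in dT and 3.02 against 3.04 in Bio. The detected genes and mitochondrial share differed between these sample kinds as given above, and their part in these differences was not tested.

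Levels of the members were compared across libraries after removal of run means, as a description of libraries that share runs and depth. Over the 48 dT libraries the Spearman correlation of ACTB with ACTG1 was 0.216, that of TUBA1B with TUBB −0.134 and that of PFN1 with ACTG1 −0.380. In the 44 Bio libraries these were 0.030, 0.220 and −0.057. Over all pairs of members the dT coefficients ran from −0.380 to 0.422, so TUBA1B and TUBB, whose proteins pair, lay inside the range of the other members. The correlation of ACTB with total counts was −0.465 in the dT screen (n = 48) and 0.254 in the Bio screen (n = 44). Among 558 genes counted in at least 90% of dT libraries, the patterns most like ACTB were those of HSF1 (0.423), GREM1 (0.405) and RPS18 (0.399). For TUBA1B they were the ferritin pseudogene FTH1P8 (0.644), the ferritin heavy chain FTH1 (0.553) and the mitochondrial MT-ND5 (0.546), and for TMSB10 they were ENSG00000224415 (0.437), RPLP1 (0.423) and RPL10P16 (0.421). In the Bio screen these genes stood, in the same order, at 0.337, 0.042 and −0.359 with ACTB, at 0.120, 0.081 and 0.040 with TUBA1B, and at −0.265, 0.026 and −0.196 with TMSB10.

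Processed pseudogenes can take reads of these genes. In the dT screen annotated pseudogenes held 9.52% of the counts of the TUBA1 family, 5.19% of those of CFL1 and 2.04% of those of TUBB, and in the Bio screen 1.89%, 0.251% and 1.72%. For ACTB the share was 0.461% in dT, and for ACTG1 1.83%. Adding the pseudogene counts left the ACTG1 call in place.

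A list of 103 further cytoskeleton genes was read in the same fits: 48 actin regulators, 34 tubulins and microtubule regulators, 14 genes of actin and tubulin folding and 7 intermediate filament genes. In the dT screen 55 could be tested for each drug. None was called for imatinib or trametinib in edgeR, with 13 and 4 at an unadjusted p under 0.05, and 3 were called for YM115, all of them tubulin or microtubule genes. MAP4, a microtubule-associated protein, fell by 5.24 ± 1.35 (SE) on the log2 scale (adjusted p 0.0200), with counts in 11 of the 21 YM115 libraries and 19 of the other 27. CLASP2, which binds microtubule plus ends, fell by 5.01 ± 1.39 (adjusted p 0.0353) on counts in 4 of 21 and 6 of 27 libraries. The highest library without YM115 held 1452 CPM of CLASP2, against a mean of 84.7 CPM without the drug. The beta tubulin TUBB2B rose by 4.54 ± 1.29 (adjusted p 0.0437), with counts in 13 of 21 libraries against 6 of 27. Its highest library without YM115 held 584 CPM, against a mean of 25.1 CPM without the drug. When only genes counted in at least 50% of the libraries were fitted, 33 of the 103 could be tested and 1, MAP4, was called. That call was for YM115, where 16 of all 2187 genes fitted were called. From the list 31 could be tested in Bio. WDR1, a cofactor of cofilin, rose with imatinib by 5.36 ± 1.26 (adjusted p 0.0129) and had reads in 13 of 18 imatinib libraries and in 20 of the other 26. The beta tubulin TUBB2A rose with trametinib by 5.03 ± 1.25 (adjusted p 0.0194) and had reads in 6 of 20 trametinib libraries and in 8 of the other 24. Each was the single call for its drug, neither was counted in a larger share of libraries with the drug, and none was called for YM115. Over all genes of the Bio screen 2.39%, 2.22% and 2.74% were called for imatinib, trametinib and YM115. Among genes counted in at least 50% of the libraries, 12 could be tested in the Bio screen and none was called for a drug. For the listed position 5 of 59 were called in dT and 8 of 39 in Bio, against 13.9% and 18.5% of all genes. For the drug-drug interaction the counts were 6 of 73 and 5 of 56, against 9.8% and 14%, and for the drug terms between screens 15 of 63, against 26.3%. None of 77 and 70 was called in the separate controls of dT and Bio. At an unadjusted p under 0.05 in edgeR there were 12 and 20, against 16.2% and 24.3% of all genes. Between the summed screens none of 78 was called, with 7 at an unadjusted p under 0.05, against 7.34% of all genes.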

How the data were processed

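Sequencing libraries of K562 cells from 96 droplet conditions and 6 separate DMSO controls were analysed (no other columns). The authors deposited 1 table of raw counts per gene, not normalized. STAR 2.4.2a and GRCh38 are named in the submitters' processing notes, and the strand setting is not given in the sources used here. Of 24965 gene IDs, 24539 were paired with symbols and 24646 with GENCODE 29 coordinates. CPM were computed from library totals. Intervals and limits cover counting error only, and PCR duplicates were not removed here. The 102 pairs of replicates compared held 0 identical pairs.

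Counts were tested with edgeR 4.0.16 (R 4.3.3; quasi-likelihood, TMM, filterByExpr, Benjamini-Hochberg over all genes tested, adjusted p threshold 0.05), with DESeq2 1.42.0 as an alternative, in which genes whose fit did not converge gave no value. Each drug had 1 term, with further terms for listed position or drug pairs, and the run as a block, since the design text ties each number to a replicate of the whole screen. The mean correlation of residuals was 0.0244 within and −0.0122 between runs in dT, and 0.0270 and −0.0135 in Bio. The other alternatives were other size factors, no filter, genes counted in at least 50% of libraries, a depth covariate, added pseudogene counts, each run left out, no library filter and single-drug conditions. Scripts were tested on simulated data, where sparse genes were called above the nominal rate.

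All members are given in every comparison, with single folds and p for members at an unadjusted p under 0.05. They are also given, beside ACTG1, for both actins with imatinib, and for TUBA1C with YM115 in dT. From the further cytoskeleton genes, those called for a drug are named, at most 6 per drug by smallest adjusted p. For ACTB, TUBA1B and TMSB10, the 3 genes of highest Spearman correlation (log2 CPM, prior count 2, centred within run) are named. The members and lists were chosen with earlier results of these data known. Correlations and shares are descriptions. The 4 droplet libraries left out entered no test of the drugs and are shown as open circles in plots. Protein sequences were not used here.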

Additional observations from a re-analysis of the deposited data

Results flagged for a closer look

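The mean level of ACTG1 with YM115 minus that without differed in sign between the screens in every run. The mean over runs was 158 CPM in dT (366, 54.1 and 53.2 CPM in the 3 runs) and −393 CPM in Bio (−400, −142 and −636 CPM). The test of the drug terms between the screens, which covers all 3 drugs together, had an edgeR adjusted p of 0.0654 for ACTG1, and the YM115 difference alone was not tested. The medians did not follow the means in every run: in dT run 3 the median was 123 CPM with YM115 and 963 without, where 1 library with YM115 held 4329 CPM, and in Bio run 1 it was 150 with and 69.6 without. For CFL1 the same held of imatinib, with −3.17 CPM in dT (−7.20, −2.15 and −0.15 CPM in the runs, all within the worth of 3 counts) and 76.6 CPM in Bio (86.4, 4.06 and 139 CPM), and the edgeR adjusted p was 0.723.

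The 4 libraries of the Bio screen that did not pass the library filter held 17882 to 93932 counts. In 11 instances a member exceeded there the highest of the 3 Bio DMSO_DMSO libraries. DMSO_Trametinib of run 1 held 128 CPM of ACTG1 (highest DMSO_DMSO 69.6 CPM), 1820 CPM of PFN1 (196 CPM) and 42.6 CPM of TUBB4B (0 CPM). The actins were highest in Imatinib_Imatinib of run 1, with 8268 CPM of ACTB (217 CPM in DMSO_DMSO) and 16074 CPM of ACTG1, the latter from 488 of 30359 counts. Imatinib_Imatinib of run 2 held 1235 CPM of ACTB, 398 CPM of ACTG1 and 1474 CPM of TUBA1C (171 CPM in DMSO_DMSO). In run 3 the same pair held 783 CPM of ACTG1, 783 CPM of TUBA1B (0 CPM in DMSO_DMSO) and 559 CPM of TUBA1C. In ACTG1 the left-out Imatinib_Imatinib libraries of Bio thus all stood above the Imatinib_Imatinib libraries of dT, which held at most 29.6 CPM. These libraries had 438 to 472 detected genes, and the part of their low depth in these levels was not tested. No group held 4 to 10 libraries, so single extreme libraries were not looked for.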

How the results depend on the processing

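Of 162 recomputed counts of members called, 135 were equal to the reported count or within 1.5 times of it. Most of these were counts of 0 that stayed 0, so the figure says little of the comparisons with a called member, which are given next. Of 160 recomputed single results 137 kept their direction and side of the threshold. For imatinib in dT (1 member called) the count was 2 in DESeq2 (with PFN1), 0 without the replicate block, 0 in single-drug conditions only and 0 to 1 when each run was left out. ACTG1 kept a negative sign under all 12 alternatives (−4.07 to −2.07, adjusted p 0.000431 to 0.700, 8 called). The 8 include the fit without the library filter, which in dT is the main fit again, since all its droplet libraries passed. For position in dT (0 called) the count was 1 with DESeq2 size factors and 1 in DESeq2, both ACTB, and for the interaction in dT (0 called) 1 without the block, TUBA1A. For Bio imatinib (0) it was 1 with a depth covariate, TUBB4B, and for Bio YM115 (0) 1 without the count filter and 2 with the depth covariate, with TUBB4B entering the test in both (7.16 and 6.89 on the log2 scale) and CFL1 passing the threshold with the covariate. For Bio position and Bio interaction (1 each, CFL1) it was 0 without the filter and with the depth covariate, and over left-out runs 0 to 1 and 0. The count was also 0 in DESeq2 and among genes counted in at least 50% of libraries, where CFL1 had no adjusted p. Between the drug terms of the screens (0) it was 2 without the filter (ACTG1 and TUBB4B) and 1 without the library filter (ACTG1), and between the summed screens (0) 1 in DESeq2 and 0 with the replicate block. The sign turned in 2 cases: ACTG1 with trametinib in dT was −0.19 in single-drug conditions, and TUBB4B between screens −0.23 in the separate controls. The cause was not tested. Among genes counted in at least 50% of libraries, further cytoskeleton genes called went from 3 to 1 for YM115 in dT, and to 0 from 5 (position, dT), 6 (interaction, dT), 1 (imatinib, Bio), 1 (trametinib, Bio), 8 (position, Bio), 5 (interaction, Bio) and 15 (drug terms between screens). Over all genes, calls in dT ran from 1 to 510 for imatinib (113 reported), 0 to 468 for trametinib (54) and 4 to 503 for YM115 (103). In dT position gave 11 to 1445 (625) and interaction 0 to 1014 (614). In Bio they ran from 0 to 218 (42), 0 to 182 (39) and 3 to 203 (48) for the drugs, 0 to 775 (390) for position and 0 to 819 (480) for interaction. Separate controls gave 2 to 85 (8) in dT and 0 to 51 (2) in Bio, drug terms between screens 0 to 2022 (1238) and summed screens 0 to 1407 (3, the highest with libraries as the unit). Without the replicate block, imatinib in dT had 12 calls. DESeq2 size factors moved the all-gene median by −0.19 for YM115 in dT, −0.25 and −0.38 for trametinib and YM115 in Bio, −1.07 and −1.26 for the separate controls of dT and Bio, and 0.30 between screens. At these depths 3 counts were worth up to 23.6 CPM in dT and up to 36.7 CPM in Bio droplet libraries, and up to 83.9 CPM in the Bio separate controls.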
